A study of Mus musculus with 8 samples.

Results

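Fibroblasts surround themselves with a matrix in which collagen is only 1 component. The genes described here code for the other structural glycoproteins of that matrix and for the enzymes that crosslink it: fibronectin, fibrillins, elastin and the fibulins, matricellular proteins such as thrombospondins and SPARC, laminins and other basement membrane proteins, versican, and the lysyl oxidases and lysyl hydroxylases. They were chosen by gene symbol, and all 43 were found among the 23420 entries of both deposited count tables. The libraries came from NIH3T3 cells, a mouse embryonic fibroblast line, that carried either a scrambled short hairpin RNA (shRNA; 4 libraries) or shRNA against RPRD1B (4 libraries), and the cells of both groups had been selected with puromycin for a week or more. RPRD1B attaches to the repeated tail of RNA polymerase II, where it acts in transcription. The labels do not state whether the selected cells were a pool or a clone, how many hairpins were used, or whether replicates were separate cultures, so p-values measure the spread between libraries, which may be technical. Replicates 1 and 2 of each group form set 1 and replicates 3 and 4 form set 2; the labels do not say what separates the sets.

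In such a matrix, cells assemble secreted fibronectin into fibrils through integrins, and fibrillin microfibrils form a scaffold on which elastin and the fibulins are laid down. Lysyl oxidases oxidise lysines of collagen and elastin so that the chains crosslink, and lysyl hydroxylases modify collagen lysines inside the cell beforehand. Matricellular proteins tune cell adhesion rather than bear load, and laminins, nidogens and perlecan build the sheet-like basement membrane.

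Library depth ranged from 12311442 to 23223139 counts, so that 3 counts, the limit that a count of 0 allows, were 0.131 to 0.242 CPM. CPM is the count of a gene relative to its library's total after TMM scaling between libraries, and the limit covers counting error only. Rprd1b, the targeted gene, stood at 42.1, 44.2, 39.5 and 40.9 CPM in scrambled replicates 1 to 4 and at 26.4, 28.1, 22.5 and 22.7 CPM in RPRD1B replicates 1 to 4, a log2 fold change of -0.75 ± 0.07 (edgeR adjusted p = 4.14e-14). All 10 fibroblast markers were expressed and their summed level was 9190 to 9470 CPM in scrambled and 9410 to 9880 CPM in knockdown libraries, with 3 of 10 higher and 2 lower in the knockdown cells. Epcam, Krt8 and Cldn4 of epithelium, Adgre1 of macrophages, Plin1 of adipocytes and Matn1 of chondrocytes had no count in any library, and the summed endothelial markers reached at most 0.659 CPM. Summed levels of the macrophage, adipocyte, smooth muscle and chondrocyte lists overlapped between groups, with 1 macrophage marker and Sox9 of the chondrocyte list called higher and 1 smooth muscle marker called lower. Not all genes of these lists were near 0. Over the 8 libraries Sox9 stood at 167 to 442 CPM, Acta2 of smooth muscle at 435 to 1030 CPM and Cd68 of macrophages at 3.64 to 9.85 CPM. The 4 neural markers summed to 9.03 to 11.2 CPM in scrambled and 15.1 to 20.4 CPM in knockdown libraries, nearly all of it Map2, the 1 neural marker called higher, while Sox10 and Gfap stayed at or under 0.308 CPM; its part in the results below was not tested.

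Most of these matrix genes were expressed, several at very high levels. With a mean count of at least 10 as the filter, 37 of the 43 genes could be tested and 6 could not. Per length of exon, fibronectin (Fn1) led with 899 ± 22.0 CPM per kb in scrambled cells (SD, n = 4), and it alone took 0.715% to 0.795% of all counts in each library. Next per length came Thbs1, the matricellular thrombospondin 1, at 634 ± 282 CPM per kb, Sparc, a collagen-binding matricellular protein, at 583 ± 25.4 CPM per kb, and the lysyl oxidase Lox at 539 ± 29.5 CPM per kb. The fibulin-like Efemp1 (337 ± 10.4 CPM per kb), nidogen 1 (Nid1, 215 ± 11.3 CPM per kb) and fibulin 2 (Fbln2, 165 ± 6.51 CPM per kb) followed. Together the 43 genes held 2.16% to 2.38% of the counts of scrambled libraries and 1.99% to 2.35% of those of knockdown libraries. Within set 1 the shares were 2.38% and 2.37% against 2.34% and 2.35%, and within set 2 they were 2.23% and 2.16% against 1.99% and 2.02%, so that in each set both knockdown libraries lay below both scrambled libraries.

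**Figure D1:**
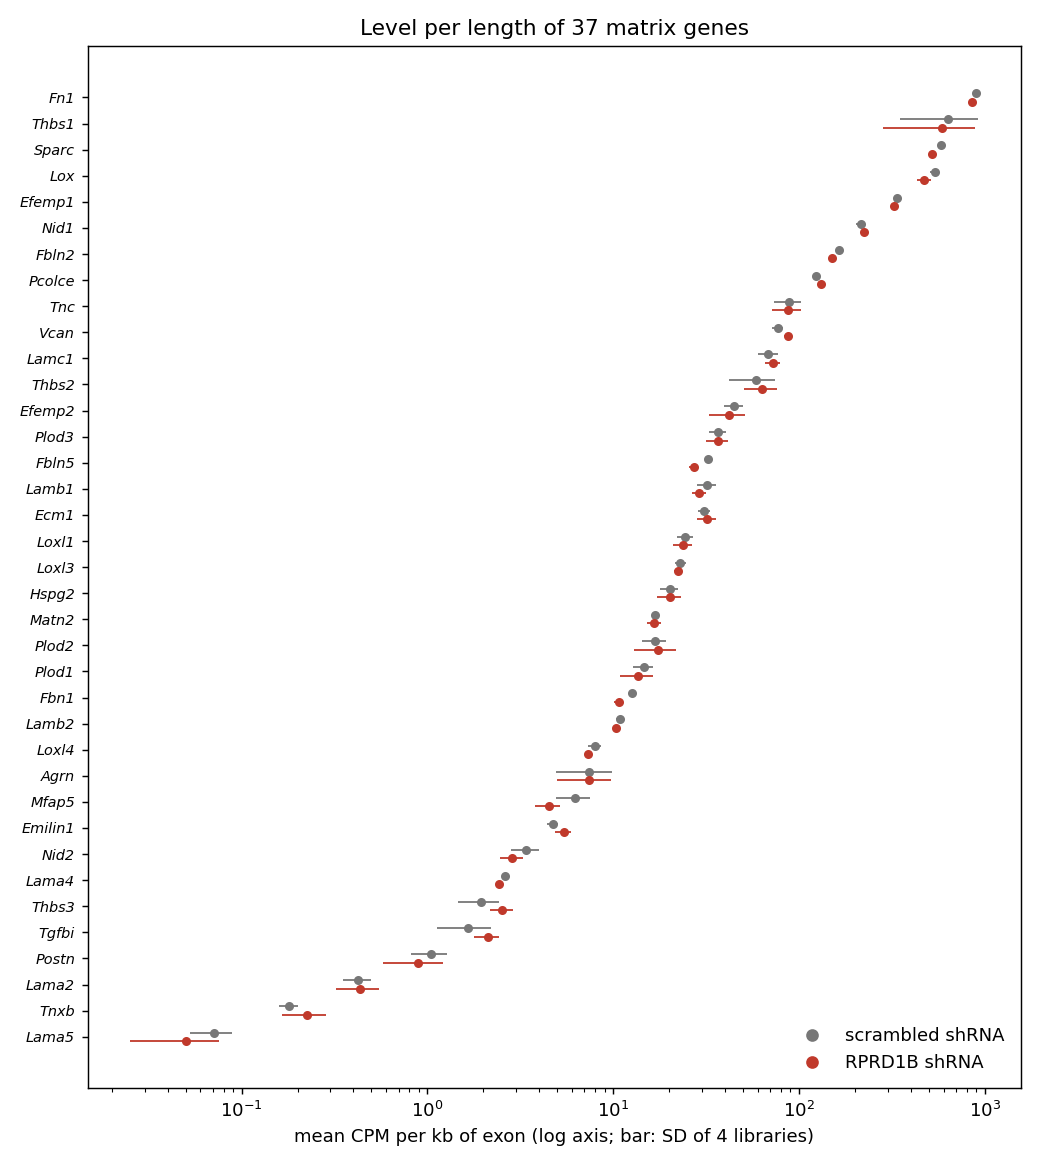
Level per length of the 37 tested matrix genes on a log axis, as mean CPM per kb of exon over the 4 scrambled (grey) and the 4 RPRD1B shRNA libraries (red), with bars for the SD. Levels run from Lama5, under 0.1 CPM per kb, to Fn1 at 899 in scrambled cells, and the bars of Thbs1 are wide because its level differed between the sets.

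The 6 genes left untested were near or at 0 in every library. Elastin itself (Eln), the rubber-like core of elastic fibres, had 0 counts in all 8 libraries, which allows at most 0.131 to 0.242 CPM per library. Fibrillin 2 (Fbn2) had 2 counts in total, fibulin 1 (Fbln1) and the microfibril protein Mfap2 had 3 each, Mfap4 had 9 and the lysyl oxidase-like Loxl2 had 26. Elastin RNA was thus not detectable at this depth, beside measurable RNA of the accessory genes Fbn1, Fbln2, Fbln5, Efemp1, Efemp2, Emilin1 and Mfap5.

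The comparison over both sets asks which of these genes differ between knockdown and scrambled cells once the difference between sets is fitted. Knockdown cells had slightly less RNA of fibulin 5, lysyl oxidase, fibrillin 1, SPARC, fibulin 2, laminin beta 1, Mfap5 and thrombospondin 1, and slightly more of versican and thrombospondin 2. Of the 37 tested genes 10 passed (edgeR quasi-likelihood test, Benjamini-Hochberg adjusted p under 0.05 over all 11723 tested genes), 8 lower and 2 higher. Among all tested genes 7.57% passed, 3.61% lower and 3.97% higher. No share of all tested genes given here or below was matched for level. The filter admitted genes down to a mean count of 10. The called members other than Mfap5 (mean count 123) had mean counts from 2132 (Fbn1) to 52970 (Thbs1). Small changes are easier to call at high counts, and the part of level in the higher share of members was not tested. All 10 changes were small: the 8 lower genes ran from -27.9% to -8.92%, and no called gene exceeded 0.47 on the absolute log2 scale. The median log2 fold change of the 37 genes was -0.05, against 0.00 over all tested genes, and 25 of 37 (67.6%) lay below 0 against 49.2% of all genes. In bulk RNA a smaller number of cells that express a gene and less of its RNA per cell cannot be told apart. Fitted without the set term, none of the 37 genes passed (0 by edgeR, 18 among all tested genes). The estimates of Fbln5 (-0.26), Fbn1 (-0.24), Lox (-0.19) and Vcan (0.17) in that fit were of the same size.

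**Figure D2:**
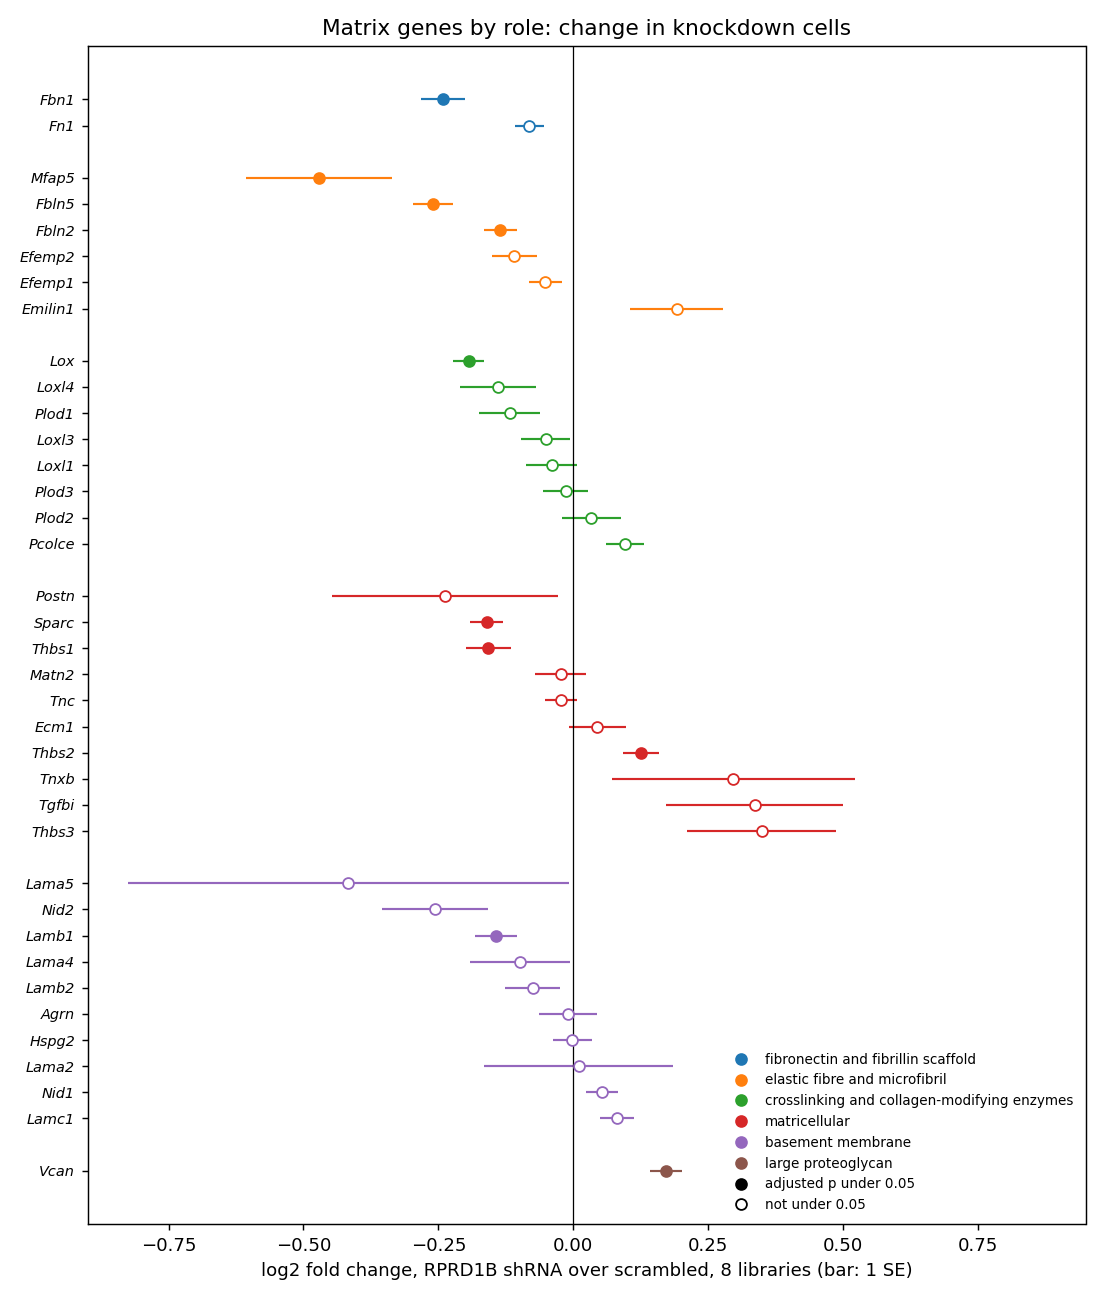
Log2 fold change of RPRD1B shRNA over scrambled libraries for the 37 tested matrix genes, ordered by role, with bars for 1 SE over the 8 libraries. Filled points passed an adjusted p of 0.05; the 4 lower genes of the scaffold and elastic fibre groups and Lox lie left of 0 beside Vcan and Thbs2 on the right.

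Of the 8 tested scaffold, microfibril and elastic fibre genes, 4 fell and none rose past the test, where 3.61% of all tested genes fell and 3.97% rose. Fbln5, fibulin 5, which tethers elastin and lysyl oxidases to microfibrils (chromosome 12, 101746565 to 101819119, mm10), stood at 206, 190, 194 and 199 CPM in scrambled replicates 1 to 4 and at 167, 174, 153 and 166 CPM in RPRD1B replicates 1 to 4. The highest knockdown library was below the lowest scrambled one, and the log2 fold change was -0.26 ± 0.04 (SE, adjusted p = 3.45e-07). Fbn1, fibrillin 1, the main microfibril subunit (chromosome 2, 125300594 to 125506485), stood at 150, 149, 148 and 160 CPM in scrambled and 139, 125, 120 and 131 CPM in knockdown replicates. Again the groups did not overlap, with a log2 fold change of -0.24 ± 0.04 (adjusted p = 1.48e-05). Of its annotated exon bases 20.3% are shared with the overlapping gene model Gm9913, and the library kit is not described as stranded, so reads of that stretch cannot be assigned to one of them.

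Fbln2, fibulin 2, which joins basement membranes and microfibrils (chromosome 6, 91212460 to 91272540), stood at 760, 765, 798 and 826 CPM in scrambled and 734, 699, 730 and 714 CPM in knockdown replicates. Its groups were also apart, by a log2 fold change of -0.13 ± 0.03 (adjusted p = 0.00138). Mfap5, the small microfibril glycoprotein MAGP-2 (chromosome 6, 122513584 to 122529290), was much less abundant, at 6.85, 9.39, 11.5 and 9.77 CPM against 6.40, 8.30, 5.89 and 6.60 CPM. In set 1 its groups overlapped and in set 2 they did not; the log2 fold change was -0.47 ± 0.14 (adjusted p = 0.0194). The call was lost, with estimates from -0.47 to -0.35, in the DESeq2 test (0.0762) and without scrambled replicate 2 (0.0505), scrambled replicate 3 (0.177), RPRD1B replicate 3 (0.0979) or RPRD1B replicate 4 (0.108).

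Fibronectin, Efemp1, Efemp2 and Emilin1 did not pass over both sets. Fn1 (chromosome 1, 71585473 to 71653280) stood at 7360, 7650, 7730 and 7770 CPM in scrambled and 7330, 7180, 7100 and 7330 CPM in knockdown replicates. In each set both knockdown libraries lay below both scrambled ones, yet the log2 difference was only -0.08 ± 0.03 (adjusted p = 0.0573). It passed with DESeq2 size factors, with upper-quartile scaling, in the DESeq2 test and without scrambled replicate 1, with a smallest adjusted p of 0.0176. Efemp2, fibulin 4, which is needed for elastic fibre assembly in mice, was at -0.11 ± 0.04 (adjusted p = 0.103) and passed without scrambled replicate 2 (0.0366).

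Among 8 tested crosslinking and collagen-modifying enzymes a single gene (12.5%) was called over both sets, where 7.57% of all tested genes were. Lox, lysyl oxidase (chromosome 18), stood at 2720, 2670, 2480 and 2430 CPM in scrambled and 2350, 2470, 2040 and 2180 CPM in knockdown replicates. Within each set both knockdown libraries lay below both scrambled ones, and across sets RPRD1B replicate 2 lay above scrambled replicate 4. The log2 fold change was -0.19 ± 0.03, a fall of 12.5% (adjusted p = 7.37e-07). The related oxidases Loxl1 (-0.04 ± 0.05), Loxl3 (-0.05 ± 0.05) and Loxl4 (-0.14 ± 0.07) did not pass, with adjusted p from 0.268 to 0.718. Lysyl hydroxylases Plod1, Plod2 and Plod3 ran from -0.12 to 0.03 with no call, and Pcolce, which enhances procollagen C-terminal processing, stood at 0.10 ± 0.04 (adjusted p = 0.0877).

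Matricellular genes went both ways, with 2 lower and 1 higher of 10 tested, where 3.61% of all tested genes were called lower and 3.97% higher. Sparc (chromosome 11, 55394159 to 55420080) stood at 1520, 1550, 1680 and 1590 CPM in scrambled and 1380, 1460, 1360 and 1480 CPM in knockdown replicates. No knockdown library reached the lowest scrambled library, and the log2 fold change was -0.16 ± 0.03 (adjusted p = 0.000117). The 153 tested genes within 10 Mb of Sparc had a median log2 fold change of -0.09, and its part in the result was not tested. Also on chromosome 11, this median was -0.11 around the member Efemp1. Around genes of the comparison list below it was -0.09 (Aebp1), -0.10 (P4ha2 and Adamts2) and 0.02 (P3h4 and Fkbp10). For the other called members the median of the genes within 10 Mb ran from -0.05 (Fbln5) to 0.04 (Fbln2). On chromosome 12, which holds Fbln5, this median was also below 0 around Lamb1 (-0.04). There it was -0.06 around Smoc1, -0.05 around Ltbp2 and -0.04 around Pxdn of the comparison list. Its part in the results was not tested.

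The related Thbs1 and Thbs2, trimeric thrombospondins that restrain blood vessel growth, were called in opposite directions over both sets, but in neither set alone were both called. Thbs2 (chromosome 17, 14665500 to 14694262) stood at 256, 268, 428 and 425 CPM in scrambled and 310, 304, 435 and 444 CPM in knockdown replicates. Both knockdown libraries were above both scrambled libraries in each set, and the log2 fold change was 0.13 ± 0.03 (adjusted p = 0.00973). The call was lost, without scrambled replicate 1 (0.095 on the log2 scale, adjusted p = 0.0927), RPRD1B replicate 1 (0.10, 0.067) or RPRD1B replicate 2 (0.11, 0.0625). Within the sets the estimates were 0.22 ± 0.05 (adjusted p = 0.00031) in set 1 and 0.04 ± 0.04 (0.713) in set 2, a difference of -0.18 ± 0.06 (unadjusted p = 0.00426, adjusted p = 0.309). Thbs1 (chromosome 2, 118111876 to 118127133) stood at 5270, 5000, 2360 and 2200 CPM in scrambled and 4770, 5150, 1830 and 1990 CPM in knockdown replicates. The groups overlapped in set 1 and were apart in set 2, and the log2 fold change was -0.16 ± 0.04 (adjusted p = 0.0263). The call was lost, with estimates from -0.16 to -0.15, in the DESeq2 test (0.132) and without scrambled replicate 1 (0.191), scrambled replicate 4 (0.0699), RPRD1B replicate 1 (0.0846) or RPRD1B replicate 4 (0.153).

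The other 7 tested matricellular genes gave no call. Tenascin C (Tnc), an adhesion-modulating glycoprotein that stood at 88.1 ± 14.6 CPM per kb in scrambled cells, was at -0.02 ± 0.03 (adjusted p = 0.762). Thbs3, Tgfbi and Tnxb had the highest estimates of the whole list, from 0.30 to 0.35 on the log2 scale, at low levels (at most 9.68 CPM in any library) and with SEs of 0.14 to 0.23. Postn, Matn2 and Ecm1 ran from -0.24 to 0.04.

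Basement membrane genes showed 1 call among 10, a share near the 7.57% of all tested genes. Lamb1, the laminin beta 1 chain (chromosome 12, 31265146 to 31329644), stood at 209, 201, 173 and 164 CPM in scrambled and 190, 168, 158 and 161 CPM in knockdown replicates. In each set the pair of knockdown values was below the scrambled pair, by a log2 fold change of -0.14 ± 0.04 (adjusted p = 0.0106). The call ended without scrambled replicate 1 (-0.12, adjusted p = 0.0679) or RPRD1B replicate 2 (-0.10, adjusted p = 0.183). Its partner chain Lamc1, laminin gamma 1, lay on the other side of 0 at 0.08 ± 0.03 (adjusted p = 0.0966). Perlecan (Hspg2), at -0.00 ± 0.04, and agrin (Agrn), at -0.01 ± 0.05, changed sign between alternatives and did not pass under any of them. Nid1, Nid2, Lama2, Lama4, Lama5 and Lamb2 did not pass either, with estimates from -0.42 (Lama5, at most 1.02 CPM in a library) to 0.05 (Nid1).

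Vcan, versican, a large chondroitin sulfate proteoglycan that binds hyaluronan (chromosome 13, 89655309 to 89743027), was the member that rose with the smallest p. It stood at 942, 999, 1100 and 1090 CPM in scrambled and 1130, 1120, 1190 and 1220 CPM in knockdown replicates. Every knockdown library was above every scrambled library. The log2 fold change was 0.17 ± 0.03, a rise of 12.7% (adjusted p = 1.52e-05).

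**Figure D3:**
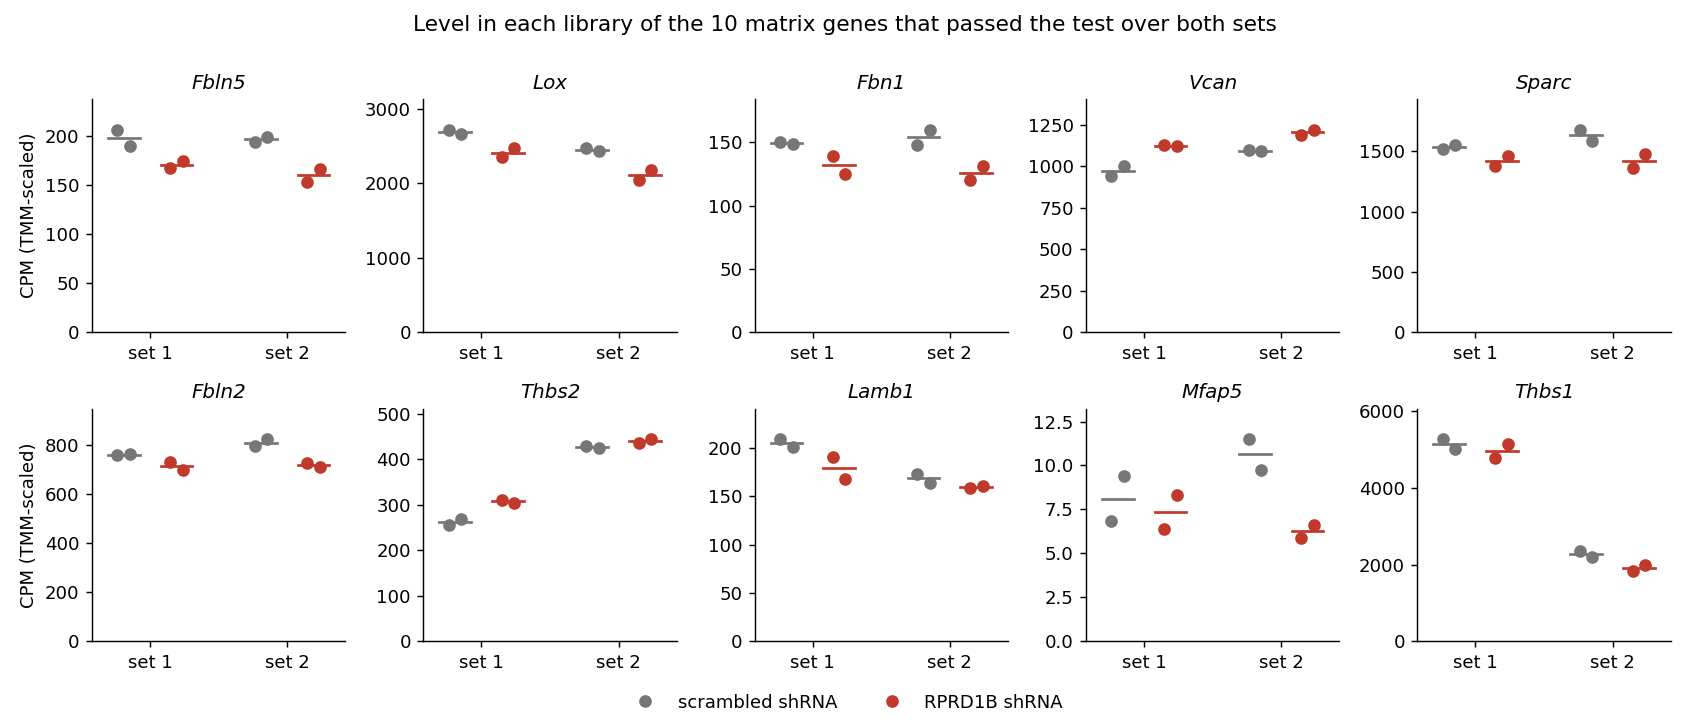
CPM in each of the 8 libraries for the 10 matrix genes that passed over both sets, on axes that start at 0, with a line at the mean of each pair. Scrambled libraries are grey and RPRD1B shRNA libraries red; the pairs are apart in the same direction in both sets for each gene except Mfap5 and Thbs1, whose pairs overlap in set 1.

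Irrespective of the test, 14 of the 37 genes (9 lower, 5 higher) had knockdown values that cleared the scrambled values in one direction within each set. Of all tested genes 16.4% showed such a separation, 7.55% lower and 8.82% higher. Besides 8 of the called genes these were Fn1, Loxl4 and Lama4 on the lower side and Pcolce, Tgfbi and Lamc1 on the higher side.

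Promoter sequences are shown for the 2 called members of each direction with the smallest p that the RefSeq table (GRCm38.p6, the assembly that mm10 names) holds, so that genes that rose and fell can be read side by side. Each run is the 250 bases before the start, 5′ to 3′ on the gene's strand, and starts are those of the promoter table. For Vcan and Fbn1 that start lies inside the gene span given above, so that the Vcan run falls wholly and the Fbn1 run partly within it. Bases just after the start were found near the beginning of a GENCODE M21 transcript for Vcan. For the starts of Thbs2, Fbln5 and Fbn1 no such transcript was found. Capitals mark matches on either strand to the motifs searched, which are TATAAA of the TATA box, GGGCGG as the SP1 core, GGAATG as the TEAD core, TGANTCA for AP-1, CAGACA as a SMAD core and the CArG box of serum response factor.
Vcan (chr13:89742513-89742762, minus strand): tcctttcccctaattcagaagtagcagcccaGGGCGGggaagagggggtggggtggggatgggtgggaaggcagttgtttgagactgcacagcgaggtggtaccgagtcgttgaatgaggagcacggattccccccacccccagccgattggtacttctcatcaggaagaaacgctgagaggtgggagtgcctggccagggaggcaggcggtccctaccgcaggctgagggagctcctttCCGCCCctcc
Thbs2 (chr17:14694263-14694512, minus strand): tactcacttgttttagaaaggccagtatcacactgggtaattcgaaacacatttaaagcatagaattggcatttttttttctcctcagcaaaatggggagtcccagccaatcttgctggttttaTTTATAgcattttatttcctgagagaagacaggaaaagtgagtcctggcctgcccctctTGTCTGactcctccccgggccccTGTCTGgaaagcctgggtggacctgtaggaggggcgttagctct
Fbln5 (chr12:101819120-101819369, minus strand): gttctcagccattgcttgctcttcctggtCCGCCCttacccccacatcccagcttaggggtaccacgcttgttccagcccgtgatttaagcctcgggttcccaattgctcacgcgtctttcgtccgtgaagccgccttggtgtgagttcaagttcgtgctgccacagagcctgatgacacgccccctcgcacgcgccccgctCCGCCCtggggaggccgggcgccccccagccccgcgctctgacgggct
Fbn1 (chr2:125506439-125506688, minus strand): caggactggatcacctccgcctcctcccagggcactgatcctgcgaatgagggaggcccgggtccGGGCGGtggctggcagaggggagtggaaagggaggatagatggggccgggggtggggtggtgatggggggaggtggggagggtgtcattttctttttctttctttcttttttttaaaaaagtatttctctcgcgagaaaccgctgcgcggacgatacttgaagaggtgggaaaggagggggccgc
Vcan, which rose, and Fbln5, which fell, each held 2 matches to GGGCGG, and Fbn1 held 1. The other Fbln5 promoter, which is not shown, held 0 matches to GGGCGG and 1 to CAGACA. The Thbs2 sequence held 1 TATAAA and 2 matches to CAGACA, and none to GGGCGG. In all, 28 of the 43 members had a promoter in the table, with 36 promoters between them. GGGCGG was in 24 of these 36 (66.7%) and in 32.7% of all 32851 promoters of the same length, and CAGACA was in 10 (27.8%) against 17.1%. TATAAA was in 6 (16.7%) against 12.4%, TGANTCA in 3 (8.33%) against 6.75%, GGAATG in 2 (5.56%) against 12.6%, and the CArG box in 1 (2.78%) against 1.47%. In the 4 printed sequences no matches overlapped. Several promoters of a member were counted separately, and some of those of Efemp2, Fbln1 and Tnc overlap each other. The shares were not matched for the content of G and C bases or for expression. A match describes letters in a window and is not a site.

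Each set was also fitted alone, as the submitters had done. In set 1, 6 of 37 genes passed (4.86% of all tested genes did, 2.68% higher and 2.18% lower), with Vcan and Thbs2 higher and Fbln5, Fbn1, Lamb1 and Lox lower. In set 2, 11 of 37 passed (5.19% of all tested genes did, 2.55% higher and 2.64% lower), with Vcan and Pcolce higher and Fbln5, Lox, Thbs1, Fbn1, Sparc, Fbln2, Mfap5, Efemp2 and Fn1 lower. Vcan, Fbln5, Fbn1 and Lox passed in both, which is 66.7% of the first list and 36.4% of the second; over all genes the 207 called in both sets are 36.8% and 33.9% of the lists. In set 2, leaving out either scrambled library or RPRD1B replicate 4 ended the call of Vcan and that of Pcolce. The latter also ended with no filter, in the DESeq2 test and with the replicate block. Of the lower calls in set 2, that of Fn1 ended with any library left out and in the DESeq2 test. It also ended at a mean count of at least 50, with upper-quartile scaling and with the replicate block. The calls of Sparc and Mfap5 ended without scrambled replicate 3, and that of Fbln2 without scrambled replicate 4. Those of Efemp2 and Mfap5 ended in the DESeq2 test. The log2 fold changes of Fbln5 were -0.22 ± 0.05 and -0.30 ± 0.05 in sets 1 and 2, those of Lox -0.16 ± 0.04 and -0.22 ± 0.04, those of Fbn1 -0.19 ± 0.05 and -0.29 ± 0.05, and those of Vcan 0.20 ± 0.04 and 0.14 ± 0.04. The sign matched between sets for 28 of the 37 (75.7%), against 58.9% of all genes tested in both. Without RPRD1B replicate 1 or RPRD1B replicate 2, set 1 kept 1 call each, Lamb1 and Lox, where calls over all genes went from 563 to 113 and 145. The DESeq2 test called 3 members of 140 genes in set 1, Thbs2, Vcan and Lox, and 7 members of 184 genes in set 2. The set 1 calls of Fbln5 and Fbn1 thus ended in the DESeq2 test, and they also ended without scrambled replicate 1. Set 2 had 6 member calls of 304 without scrambled replicate 3 and 7 of 355 without scrambled replicate 4, where it had 11 of 611 with all libraries.

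**Figure D4:**
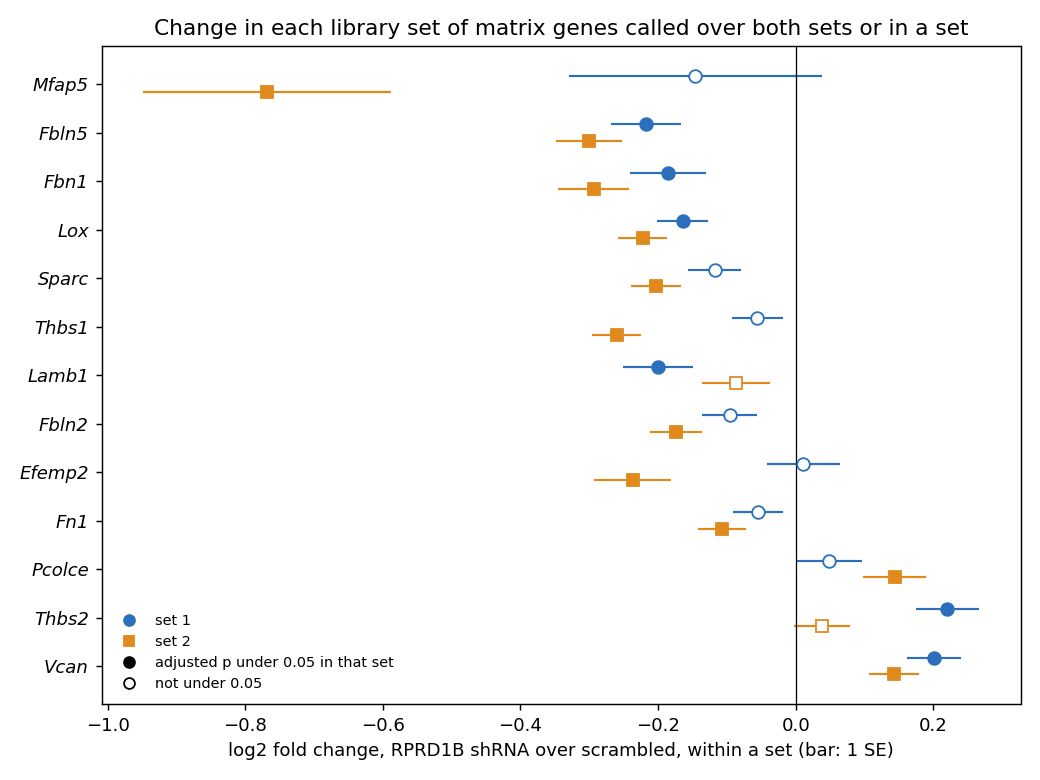
Log2 fold change within set 1 (blue circles) and within set 2 (orange squares) for the 13 matrix genes called between knockdown and scrambled libraries over both sets or within a set, with bars for 1 SE and filled symbols for an adjusted p under 0.05 in that set. Fbln5, Fbn1, Lox and Vcan are filled in both sets, while Thbs1, Mfap5 and Efemp2 lie much nearer 0 in set 1 than in set 2.

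The authors' deposited table for set 1 lists 4 of these genes at a q under 0.05 (2.47% of all its entries are), Thbs2, Vcan, Lox and Fbln5. The authors' deposited table for set 2 lists 10 (2.04% of all its entries are), 9 lower and 1 higher. In the authors' deposited table Fbln5 has a log2 fold change of -0.21 in set 1 (SE 0.064, q = 0.038) and of -0.30 in set 2 (SE 0.0603, q = 0.000138). Fbn1 has -0.18 there in set 1 (SE 0.0702, q = 0.177) and -0.29 in set 2 (SE 0.0694, q = 0.003).

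The test of the difference between the sets called none of the 37 genes in edgeR (0.247% of all tested genes passed, 0.171% higher and 0.0768% lower in set 2) and none in the DESeq2 test, while 8 members (21.6%) had an unadjusted p under 0.05 against 8.64% of all genes. The differences leaned to one side: in 28 of 37 genes (75.7%) the fold change was lower in set 2 than in set 1, against 50.3% of all genes. Matn2 had the smallest p among members, with 0.13 in set 1, -0.17 in set 2 and a difference of -0.30 (adjusted p = 0.103). Thbs1 stood at -0.06 ± 0.04 in set 1 and -0.26 ± 0.04 in set 2, a difference of -0.20 ± 0.06 (adjusted p = 0.156) that passed with no filter on the mean count (0.0189) and without RPRD1B replicate 4 (0.0496). Efemp2 stood at 0.01 ± 0.05 and -0.24 ± 0.06, a difference of -0.24 (adjusted p = 0.197).

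The levels of some of these genes also differed between the sets. The absolute log2 difference between sets was larger than that between groups in 22 of the 37 genes, and among the 10 called genes in 3, Thbs1, Thbs2 and Lamb1. Over the 37 genes its median was 0.23 between sets and 0.12 between groups. Over all tested genes these medians were 0.31 and 0.08, without matching for level. The count of 22 was not taken over all genes. Of the 37 genes 21 passed, 12 higher and 9 lower in set 2, where 65.9% of all tested genes passed. Thbs1 was lower in set 2 by 1.28 on the log2 scale (log2 difference -1.28 ± 0.04), from 4770 to 5270 CPM down to 1830 to 2360 CPM. Agrn was higher in set 2 by 0.83 ± 0.05, Thbs2 by 0.61 ± 0.03 and the lysyl hydroxylase Plod2 by 0.48 ± 0.06, while Tnc stood at -0.44 ± 0.03 and Efemp2 at -0.44 ± 0.04. Fn1 (0.01 ± 0.03), Fbn1 (-0.01 ± 0.04), Fbln5 (-0.06 ± 0.04), Fbln2 (0.05 ± 0.03) and Sparc (0.04 ± 0.03) did not pass. The set and whatever distinguished its libraries cannot be told apart.

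Other matrix genes outside this list, 62 latent TGF-beta binding proteins, collagen hydroxylases and chaperones, further laminins, matrilins and related genes, served for comparison. Of 33 that could be tested 6 fell and 2 rose, 24.2%, with a median of -0.07. Of all tested genes 7.57% were called, and these shares were not matched for level. The falls with the smallest p were of Svep1, a large cell adhesion protein (-0.43 ± 0.05, adjusted p = 9.82e-11), Aebp1, a collagen-binding carboxypeptidase-like protein (-0.22 ± 0.03), the latent TGF-beta binding protein Ltbp1 (-0.18 ± 0.03) and the prolyl hydroxylase subunit P4ha2 (-0.19 ± 0.05). Ltbp2 and Npnt were the other 2 that fell; leaving out one library ended the call of Ltbp2 for scrambled replicate 1 or RPRD1B replicate 1, and that of Npnt for scrambled replicates 1, 2 or 4 or RPRD1B replicates 2 or 3. Ltbp4, which binds latent TGF-beta and fibulins 4 and 5 in elastic fibre assembly, rose from 4.15, 5.02, 5.66 and 6.16 CPM in scrambled to 8.44, 11.4, 13.2 and 9.53 CPM in knockdown replicates, a log2 fold change of 1.00 ± 0.14 (adjusted p = 7.68e-08). Sparcl1, a relative of SPARC, rose by 0.48 ± 0.10 (adjusted p = 0.000289), opposite in sign to Sparc. The genes within 10 Mb had a median of 0.11 around Ltbp4, -0.10 around P4ha2 and -0.09 around Aebp1.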

How the data were processed

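RNA of 8 libraries of NIH3T3 cells was sequenced as paired-end reads of 75 bases, and the labels name the mm10 build. The aligner, counting tool and annotation were not given in the sources used here. Deposited counts are raw whole numbers per gene for 23420 entries in 2 tables of 4 libraries, 27 of them names that a spreadsheet turned into dates, kept in totals and tests. The deposited comparisons hold a signal (the authors' mean scaled count, entries under 10 left out), the authors' log2 fold changes with SE, and the authors' q-value; they were quoted only.

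The test was that of edgeR 4.0.16, run in R 4.3.3 on genes whose counts averaged 10 or more (robust quasi-likelihood F test, TMM scaling, two-sided), with p adjusted over all tested genes and called under 0.05. The fit over 8 libraries had set and group as terms, fits within a set the group, and the difference between sets their interaction. The SE was taken as the size of the log2 fold change divided by the root of F. CPM is TMM-scaled; CPM per kb uses the union of GENCODE M21 basic exons, which may differ from the authors' annotation. Tests were tried on simulated counts with known shifts. Alternatives were other filters and scalings, DESeq2 1.42.0, no set term, a replicate block and leaving out each library. Replicate numbers were not treated as pairs in the main fit. The gene-wise correlation of deviations at equal numbers was 0.00421 (set 1) and -0.0388 (set 2). Sampling noise of genes with low counts enters these values, so they do not exclude pairing. No 2 replicates agreed within sampling noise (chi-square per degree of freedom 2.97 to 6.94).

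Members, lists and the naming rule were chosen with earlier results of these data known. All members are accounted for; values per library are given for up to 6 called members per direction with the smallest p, and for Mfap5, Thbs1 and Fn1, added after their values were seen. Of the other matrix genes up to 4 called per direction are given, and Ltbp2 and Npnt only named. Fbln5 has 2 promoters in the RefSeq table, of which the outermost is shown. Coordinates are RefSeq's, GRCm38.p6.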

Additional observations from a re-analysis of the deposited data

Results flagged for a closer look

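In scrambled replicate 4 the level of Fbn1 was 160 CPM, against 148 to 150 CPM in the other 3 scrambled libraries. Pcolce was highest in RPRD1B replicate 4, at 239 CPM against 219 to 222 CPM in the other knockdown libraries. Postn was highest in RPRD1B replicate 2, at 4.48 CPM against 2.27 to 2.53 CPM. These 3 stood far from the rest of their group among 92 gene and group pairs examined, and chance was not excluded. A chance rate of about 1 in 20 is that of values from a single like group. Each group here held libraries of both sets, so that rate may not apply. Without scrambled replicate 4 the call of Fbn1 over both sets held. Pcolce was called in set 2 alone (adjusted p = 0.036), and that call was lost without RPRD1B replicate 4.

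Smoc2, a matricellular calcium-binding protein of the comparison list, had a fold change that differed between the sets by -0.52 ± 0.13 on the log2 scale (set 2 minus set 1, edgeR adjusted p = 0.0454), from 0.05 in set 1 to -0.47 in set 2.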

How the results depend on the processing

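Of the 10 called genes, 6 (Fbln5, Lox, Fbn1, Vcan, Sparc and Fbln2) passed under every alternative other than the fit without the set term, and all 10 kept their sign in all 15 alternatives. That fit called 0 members and 0 other matrix genes, and 18 genes in all. The median of the members ran from -0.07 to -0.04. With one library left out, 8 to 10 members were called over both sets (625 to 829 of all genes), 1 to 7 in set 1 (113 to 571), 6 to 10 in set 2 (273 to 355) and 0 to 1 for the difference between sets. The DESeq2 test called 9 members over both sets, 3 in set 1 and 7 in set 2, and no filter gave 1 for the difference, Thbs1. The replicate block called 10 members over both sets (8 in set 1, 9 in set 2), without changing which members were called over both sets. Whether the replicate numbers pair the libraries is not known. Signs changed for uncalled genes near 0: with one library left out Plod2 ran from -0.0203 to 0.0874, Plod3 from -0.0404 to 0.0229, Matn2 from -0.0609 to 0.0228, Lama2 from -0.1012 to 0.1265, Hspg2 from -0.0412 to 0.0352 and Agrn from -0.0469 to 0.0219, and Hspg2 was at 0.0034 with no filter and 0.0026 without the set term. The cause of these changes was not tested. Genes under about 10 CPM (Mfap5, Thbs3, Tgfbi, Tnxb, Postn, Lama2, Lama5) have the widest errors, and depth limits what they can show.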
